A study of Homo sapiens with 4 samples.

Results

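The 10 genes described here are the regulators of the G1 phase of the cell cycle, the stretch between cell division and the start of DNA replication. Their families have further members. The 10 were chosen by name from 50868 genes in the deposited tables, with earlier results of these data known. They comprise the inhibitors CDKN1A (p21), CDKN1B (p27), CDKN2C (p18) and CDKN2D (p19), the D-type cyclins CCND2 and CCND3, the cyclin-dependent kinases CDK4 and CDK6, and the E-type cyclins CCNE1 and CCNE2. RNA-seq was performed on Jurkat cells, a human leukemic T-cell line that the labels give as a wild-type T lymphoblast. The cells were exposed for 24 h to DMSO, the solvent control, to 0.5 μM JQ1, to DMSO with 150 ng/ml PHA, or to 0.5 μM JQ1 with 150 ng/ml PHA. JQ1 is an inhibitor of the BET bromodomain proteins, which bind acetylated chromatin and promote transcription, and PHA is a plant lectin that stimulates T cells through their surface receptors. The sequencing addressed which genes and pathways change downstream of BET inhibition. Each condition had 1 library of 1 cell line, so no value below has a replicate error and no test between conditions was made.

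In the G1 phase, D-type cyclins bind CDK4 or CDK6 and the pairs phosphorylate the retinoblastoma protein, which releases the E2F factors that switch on genes for DNA replication. E-type cyclins with CDK2 complete that step. INK4 inhibitors such as CDKN2C and CDKN2D bind CDK4 and CDK6 themselves, whereas CIP/KIP inhibitors such as CDKN1A and CDKN1B bind cyclin-CDK complexes, including those of cyclin E with CDK2. In T cells, the D cyclins rise on stimulation and p27 is abundant in the resting state.

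The libraries held between 18620954 and 19685401 counts, so that 3 counts, taken as the limit of detection, amounted to between 0.152 and 0.161 CPM. Levels are given as FPKM (counts scaled to the length of the gene model and to the library total), and ratios as the log2 ratio of a gene's shares of all counts with a 95% exact (Clopper-Pearson) interval. These intervals cover counting error only. A gene was called past 2-fold on the log2 ratio of FPKM after 0.1 had been added, which was done for the 11503 genes whose mean FPKM reached 1. Of the 10 genes, 9 passed that filter and CDKN1A did not. All 12 T-lineage markers examined were above 1 FPKM in every library, and the myeloid and erythroid markers summed to at most 0.155 FPKM. The 3 NK cell markers summed to 0.856 FPKM with DMSO and 2.06 with DMSO + PHA. With JQ1 they summed to 0.367, and with JQ1 + PHA to 0.396. The summed FPKM of the T-lineage markers was 366 with DMSO and 402 with DMSO + PHA, against 183 with JQ1 and 202 with JQ1 + PHA. The lymphoid marker CD79A and the adhesion molecule PECAM1, on the B cell and stromal lists, were also detected, and CD79A read 7.48 FPKM with DMSO and 1.06 with JQ1. The part of these differences in the results below was not tested. In bulk RNA, fewer cells in a state and less RNA per cell cannot be told apart.

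JQ1 left 3 of the 9 genes past 2-fold, and the same 3 with PHA. CDKN1B and CDKN2D were higher and CCND2 was lower. Among all genes tested, 5.22% were at least 2-fold higher and 8.65% at least 2-fold lower with JQ1, against 2 and 1 of the 9. With PHA present the corresponding shares were 3.69% and 8.00%, again against 2 and 1 of the 9. The 9 were chosen with earlier results of these data known, so setting them beside these shares is a description only. PHA itself put none of the 9 past 2-fold. Of all genes tested, 2.10% were higher and 1.19% lower with DMSO + PHA than with DMSO, and 1.04% were higher and 1.03% lower with JQ1 + PHA than with JQ1. By their counting intervals, 6 of the 10 genes had a higher share of counts with JQ1, 2 a lower one and 2 an interval that included 0, and these were the same genes with and without PHA. At this depth such intervals excluded 0 for most genes tested, 36.9% of them higher and 38.7% lower with JQ1, and 34.6% and 38.2% with PHA present.

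**Figure D1:**
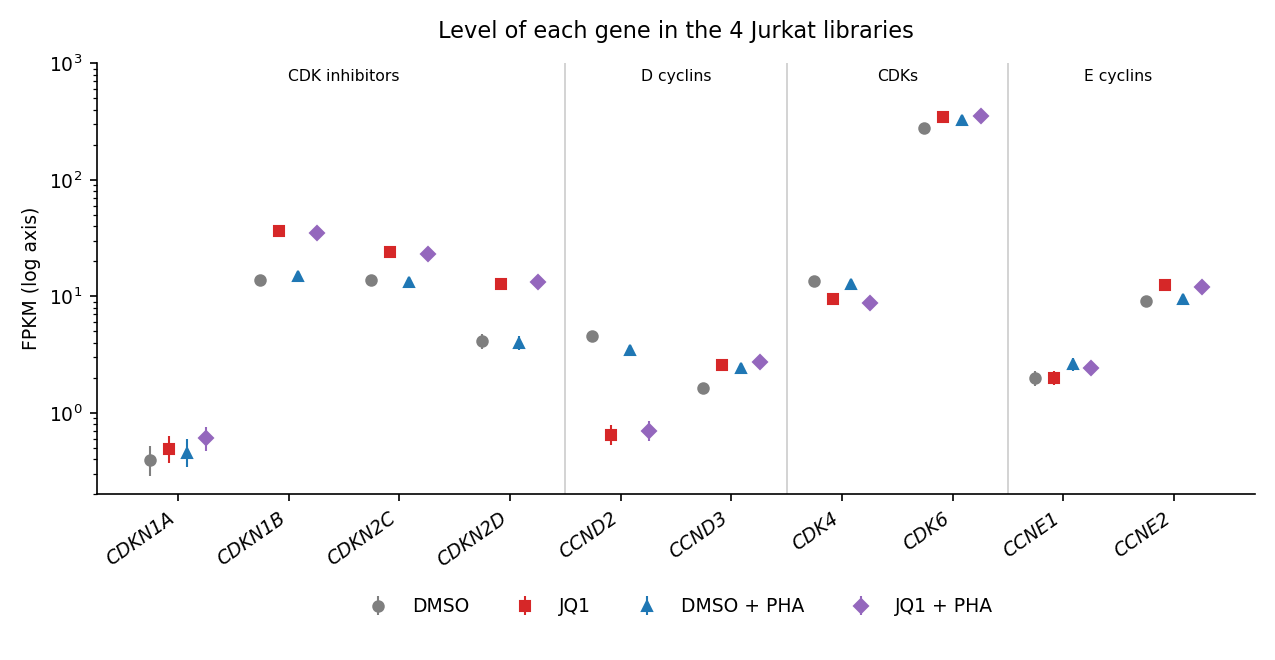
FPKM of each gene (vertical log axis) in the 4 libraries, 1 point per library, with bars for the 95% exact interval of the count, which is smaller than the symbol for most genes. CDKN1B, CDKN2C and CDKN2D sat higher in both libraries with JQ1 (36.2 and 34.7 FPKM for CDKN1B), CCND2 sat lower (0.650 and 0.701 FPKM), and CDK6 stood above all the others (280 to 353 FPKM).

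CDKN1B encodes p27, which holds cyclin E-CDK2 and cyclin A-CDK2 inactive. The files place it (ENSG00000111276) on chromosome 12 (GRCh38, 12715058 to 12722371, plus strand). Its promoter is shown because CDKN1B was past 2-fold with JQ1. The 250 bases before the RefSeq start (GRCh38.p14, chr12:12717118-12717367, plus strand) hold 2 CCAAT boxes and 1 GC box, printed in capitals.

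CDKN1B: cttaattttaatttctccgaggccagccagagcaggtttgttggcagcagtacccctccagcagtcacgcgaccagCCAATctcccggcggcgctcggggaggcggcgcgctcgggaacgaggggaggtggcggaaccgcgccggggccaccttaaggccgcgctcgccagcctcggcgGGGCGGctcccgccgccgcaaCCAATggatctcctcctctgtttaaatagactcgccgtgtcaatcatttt

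CDKN1B read 13.7 FPKM with DMSO and 14.8 with DMSO + PHA, against 36.2 with JQ1 and 34.7 with JQ1 + PHA (1112 and 1257 counts against 3079 and 2792). Both libraries with JQ1 lay well above both without it. The share of counts was 2.65-fold higher with JQ1 (log2 ratio 1.40, interval 1.31 to 1.505) and 2.35-fold higher with JQ1 in the presence of PHA (1.23, 1.13 to 1.33). The difference between these log2 ratios was -0.17, with minus without PHA, and its interval (-0.31 to -0.03) excluded 0 for counting error. CDKN1B moved from rank 2397 to rank 664 among the 11503 genes ordered by FPKM with JQ1, and from 2179 to 700 with PHA present. A change by PHA was not detectable at this depth, at 0.11 in DMSO and -0.06 in JQ1, since both intervals included 0. The files also hold a gene named RP11-180M15.7 that overlaps CDKN1B by 549 bases, with 48 counts with DMSO and 31 with DMSO + PHA, against 162 with JQ1 and 142 with JQ1 + PHA. Its strand is not known here, and reads of the overlap could belong to either gene.

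CDKN1A encodes p21, the CIP/KIP inhibitor best known as a target of p53, and lies on chromosome 6 (36676460 to 36687339, plus strand). It read 0.391 FPKM with DMSO and 0.456 with DMSO + PHA, against 0.488 with JQ1 and 0.602 with JQ1 + PHA (46 and 56 counts against 60 and 70). All 4 libraries were low. The log2 ratio for JQ1 was 0.32 (-0.26 to 0.91) without PHA and 0.40 (-0.13 to 0.94) with it, so no difference was detectable at this depth, and the intervals allow a change of nearly 2-fold upward. By FPKM, CDKN1B was at 34.9 times CDKN1A with DMSO and at 74.1 times with JQ1, and per canonical transcript length, an alternative chosen after the data had been seen, at 21.2 and 45.1 times. Per canonical length CDKN1A read 1.15 with DMSO and 1.34 with DMSO + PHA, against 1.44 with JQ1 and 1.78 with JQ1 + PHA. Its level below the cut-off of 1 therefore depended on the length used. The third gene of the CIP/KIP family, CDKN1C (p57), had 12 counts with DMSO and 16 with DMSO + PHA, against 1 with JQ1 and 5 with JQ1 + PHA.

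Of the INK4 inhibitors, CDKN2D was past 2-fold and CDKN2C was not. CDKN2D (ENSG00000129355), which encodes p19, lies on chromosome 19 (10566462 to 10569059, minus strand). CDKN2C (ENSG00000123080), which encodes p18, lies on chromosome 1 (50960745 to 50974633, plus strand). Their promoters are shown to set the INK4 pair beside CDKN1B. They are the 250 bases before the RefSeq starts, chr19:10568980-10569229 on the minus strand and chr1:50969995-50970244 on the plus strand (GRCh38.p14). CDKN2C has 3 RefSeq starts, and the window shown is that of the start nearest the start of the canonical transcript. Capitals mark the CCAAT box, the GC box on either strand and, in CDKN2C, an E box.

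CDKN2D: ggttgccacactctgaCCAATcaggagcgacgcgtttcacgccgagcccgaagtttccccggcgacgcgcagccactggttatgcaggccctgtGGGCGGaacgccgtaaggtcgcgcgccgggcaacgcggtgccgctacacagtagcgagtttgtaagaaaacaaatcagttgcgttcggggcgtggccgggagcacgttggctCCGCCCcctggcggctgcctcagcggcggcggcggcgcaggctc

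CDKN2C: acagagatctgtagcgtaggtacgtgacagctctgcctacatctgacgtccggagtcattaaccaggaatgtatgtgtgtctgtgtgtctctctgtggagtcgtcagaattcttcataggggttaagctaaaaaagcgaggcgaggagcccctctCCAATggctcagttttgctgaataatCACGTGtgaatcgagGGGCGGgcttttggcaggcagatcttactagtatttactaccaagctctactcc

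CDKN2D read 4.11 FPKM with DMSO and 3.99 with DMSO + PHA, against 12.8 with JQ1 and 13.2 with JQ1 + PHA (194 and 197 counts against 632 and 615). The libraries with JQ1 were the high ones, and PHA made no detectable difference at this depth on either background (-0.04, interval -0.34 to 0.25, and 0.04, interval -0.12 to 0.20). The share of counts was 3.11-fold higher with JQ1 (log2 ratio 1.64, 1.40 to 1.88) and 3.30-fold higher with PHA present (1.72, 1.49 to 1.96). Of the genes tested, 98.7% had a lower log2 FPKM ratio than CDKN2D with JQ1, and 99.1% with JQ1 + PHA.

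CDKN2C read 13.8 FPKM with DMSO and 13.2 with DMSO + PHA, against 23.8 with JQ1 and 22.9 with JQ1 + PHA (1382 and 1387 counts against 2498 and 2270). It was higher in both libraries with JQ1, by 1.73-fold in each comparison (log2 ratio 0.79, 0.69 to 0.89, in both), which is below the 2-fold call. The difference between both comparisons was 0.00, with an interval of -0.14 to 0.14, and the log2 ratio for PHA was -0.06 in DMSO (-0.17 to 0.05) and in JQ1 (-0.14 to 0.02). By FPKM, CDKN2C stood at 3.35 times CDKN2D with DMSO and at 1.86 times with JQ1, and at 3.31 and 1.74 times with PHA. Per canonical transcript length these ratios were 10.2 and 5.66, and 10.1 and 5.29 with PHA. The remaining INK4 genes were close to absent. CDKN2A, the gene of p16, had 2 counts with DMSO and 0 in the other libraries, and CDKN2B, the gene of p15, had 1 count with JQ1 and 0 in the others. No fold is given for them.

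Summed over the 4 inhibitors, FPKM was 32.0 with DMSO and 32.4 with DMSO + PHA, against 73.3 with JQ1 and 71.3 with JQ1 + PHA. CDKN1B and CDKN2C carried most of that sum. The log2 ratio of the counts summed over all 4 was 1.13 (1.07 to 1.20) with JQ1 and 1.07 (1.004 to 1.13) with JQ1 + PHA, and 0.02 (-0.06 to 0.09) and -0.05 (-0.10 to 0.01) for PHA in DMSO and in JQ1.

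**Figure D2:**
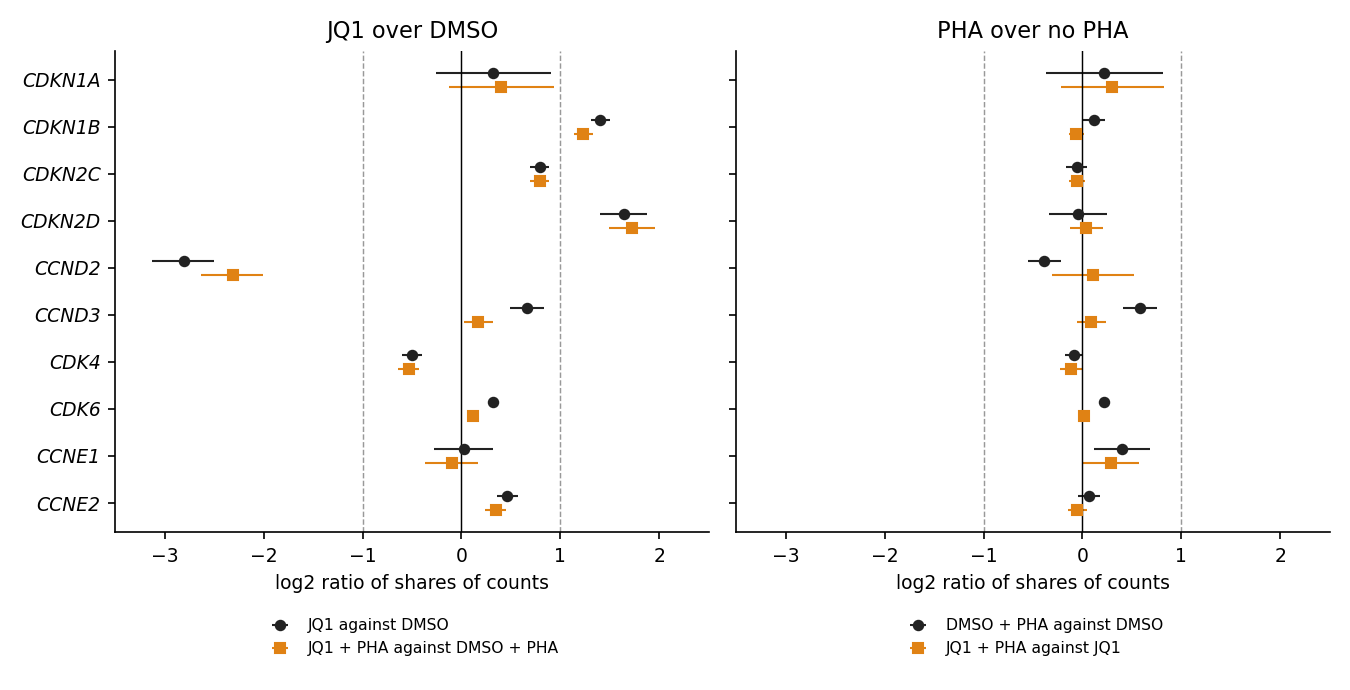
Log2 ratio of each gene's share of counts (horizontal axis) with its 95% exact interval, which covers counting error only. The left panel sets JQ1 against DMSO without PHA (circles) and with PHA (squares), the right panel sets PHA against no PHA in DMSO (circles) and in JQ1 (squares), and dashed lines mark 2-fold. CDKN1B, CDKN2D and CCND2 lie outside the dashed lines on the left (1.40, 1.64 and -2.81 without PHA), and no gene does on the right.

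CCND2 and CCND3, the D-type cyclins among the 10 genes, differed in direction with JQ1. CCND2 (ENSG00000118971) lies on chromosome 12 (4273772 to 4305350, plus strand) and encodes cyclin D2, one of the D cyclins that T cells use. CCND2 read 4.55 FPKM with DMSO and 3.48 with DMSO + PHA, against 0.650 with JQ1 and 0.701 with JQ1 + PHA (663 and 531 counts against 99 and 101). Both libraries with JQ1 were low, and their counting intervals did not overlap those of the others. The share of counts was 7.0-fold lower with JQ1 (log2 ratio -2.81, -3.13 to -2.50) and 4.97-fold lower with PHA present (-2.31, -2.64 to -2.00). Of the genes tested, 0.782% had a lower log2 FPKM ratio with JQ1, and 1.44% with PHA present. The log2 ratio for PHA was -0.39 (-0.55 to -0.22) in DMSO and 0.11 (-0.31 to 0.52) in JQ1. The JQ1 log2 ratios differed by 0.49, with minus without PHA, with an interval of 0.04 to 0.94. The antisense genes listed over CCND2 had at most 1 count in any library.

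CCND3 encodes cyclin D3 and lies on chromosome 6 (41934933 to 42050357, minus strand). It read 1.62 FPKM with DMSO and 2.43 with DMSO + PHA, against 2.56 with JQ1 and 2.73 with JQ1 + PHA (460 and 720 counts against 760 and 766). The DMSO library stood low and the other 3 lay close together. With JQ1 its share of counts was 1.58-fold higher without PHA (log2 ratio 0.66, 0.49 to 0.83) and 1.12-fold higher with it (0.17, 0.02 to 0.32), and with PHA it was 1.5-fold higher in DMSO (0.58, 0.41 to 0.75). The JQ1 log2 ratios differed by -0.49 (-0.72 to -0.26). The remaining D cyclin, CCND1, had 8 counts with DMSO and 13 with DMSO + PHA, against 3 with JQ1 and 7 with JQ1 + PHA.

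CCND2 therefore made up a smaller part of the D cyclins with JQ1, but which cyclin was the more abundant with DMSO depended on the length used. The length implied by the deposited FPKM was 7.44 times the canonical transcript length for CCND3 and 1.19 times for CCND2. By deposited FPKM, CCND2 stood at 2.81 times CCND3 with DMSO and 1.44 with DMSO + PHA, against 0.254 with JQ1 and 0.257 with JQ1 + PHA. Per canonical transcript length, the ratios were 0.450 and 0.230 without JQ1 and 0.0406 and 0.0411 with it. The ratio was lowest in the libraries with JQ1. The length of each gene is the same in all libraries, so this order of the libraries cannot differ between the scales. The summed counts of both cyclins were lower with JQ1, by a log2 ratio of -0.45 (-0.58 to -0.32) without PHA and -0.45 (-0.58 to -0.32) with it. By deposited FPKM the pair summed to 6.17 without and 5.91 with PHA in DMSO, and to 3.21 and 3.43 in JQ1. Summed per canonical length, the pair read 17.5 with DMSO and 22.2 with DMSO + PHA, against 19.8 with JQ1 and 21.1 with JQ1 + PHA, so without PHA the direction of the sum depended on the length.

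**Figure D3:**
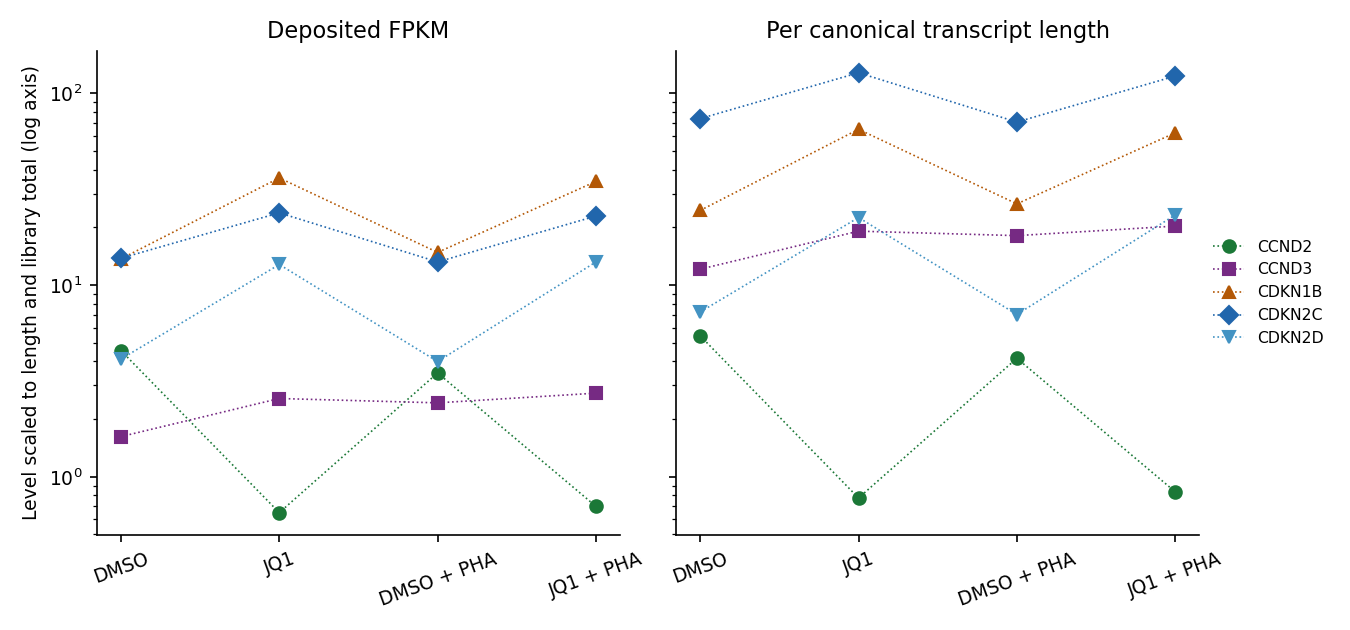
Level of CCND2, CCND3, CDKN1B, CDKN2C and CDKN2D per transcript length and library total (vertical log axis) in the 4 libraries, from the deposited FPKM (left) and from the counts per canonical transcript length (right). Dotted lines only guide the eye. CCND2 starts above CCND3 with DMSO on the left (4.55 against 1.62) and below it on the right (5.43 against 12.1), and with JQ1 it lies below CCND3 on both.

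Of the G1 kinases, CDK6 was far the more abundant and CDK4 was lower with JQ1 by less than 2-fold. CDK6 lies on chromosome 7 (92604921 to 92836594, minus strand) and is a partner of the D cyclins that is prominent in blood cells. It read 280 FPKM with DMSO and 325 with DMSO + PHA, against 349 with JQ1 and 353 with JQ1 + PHA (71627 and 87057 counts against 93520 and 89351). That placed it between rank 47 and rank 76 of the 11503 genes. The DMSO library was the lowest, with log2 ratios of 0.32 (0.31 to 0.33) for JQ1, 0.12 (0.10 to 0.13) for JQ1 with PHA and 0.22 (0.20 to 0.23) for PHA in DMSO, and 0.01 (0.001 to 0.03) for PHA in JQ1. The JQ1 log2 ratios differed by -0.20 (-0.22 to -0.18), with minus without PHA. At this depth the counting intervals are narrower than the effect of the scaling between libraries, which moved the log2 ratios by up to 0.06. The antisense gene CDK6-AS1, which overlaps CDK6 by 112 bases, had between 189 and 370 counts.

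CDK4 (ENSG00000135446) lies on chromosome 12 (57747727 to 57756013, minus strand). Its promoter is shown because CDK4 is the kinase that was lower with JQ1. The 250 bases before the RefSeq start (GRCh38.p14, chr12:57752311-57752560, minus strand) hold 3 E boxes and 3 GC boxes, the latter on the opposite strand, in capitals.

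CDK4: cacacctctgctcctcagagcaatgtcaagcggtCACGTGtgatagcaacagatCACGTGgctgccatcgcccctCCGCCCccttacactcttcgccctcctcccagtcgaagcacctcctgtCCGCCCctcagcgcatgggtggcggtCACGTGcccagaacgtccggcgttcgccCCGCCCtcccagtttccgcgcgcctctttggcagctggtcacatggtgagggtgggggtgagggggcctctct

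CDK4 read 13.5 FPKM with DMSO and 12.8 with DMSO + PHA, against 9.55 with JQ1 and 8.83 with JQ1 + PHA (1910 and 1887 counts against 1409 and 1232). Both libraries with JQ1 were below both without it. The share of counts was 1.42-fold lower with JQ1 (log2 ratio -0.50, -0.60 to -0.40) and 1.45-fold lower with PHA present (-0.53, -0.64 to -0.43), below the 2-fold call. For PHA the log2 ratio was -0.08 (-0.18 to 0.01) in DMSO and -0.11 (-0.23 to -0.003) in JQ1, and whether these intervals included 0 depended on the scaling. Of the genes tested, 22.6% and 19.9% had a still lower log2 FPKM ratio. CDK4 overlaps MARCHF9 by 916 bases and TSPAN31 by 2485 bases, both on the opposite strand. MARCHF9, which the files list under its older symbol turned into a date, had between 446 and 687 counts and TSPAN31 at most 1, and how the counting treated strand is not given in the sources used here. By FPKM, CDK6 stood at 20.7 times CDK4 with DMSO and 25.4 with DMSO + PHA, against 36.6 with JQ1 and 40 with JQ1 + PHA. Per canonical length the ratios were smaller, at 6.0, 10.6, 7.38 and 11.6 in the order DMSO, JQ1, DMSO + PHA and JQ1 + PHA, because the length implied for CDK4 was 4.02 times its canonical one and that of CDK6 was 1.17 times.

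The E-type cyclins, which drive CDK2 at the entry into S phase, stayed within 2-fold in every comparison. CCNE2 read 9.09 FPKM with DMSO and 9.50 with DMSO + PHA, against 12.5 with JQ1 and 12.1 with JQ1 + PHA (1256 and 1373 counts against 1810 and 1650). It was higher in both libraries with JQ1, by 1.38-fold (log2 ratio 0.46, 0.36 to 0.57) and 1.27-fold (0.35, 0.24 to 0.45). For PHA it read 0.06 (-0.05 to 0.17) in DMSO and -0.05 (-0.15 to 0.04) in JQ1, which is not a detectable difference at this depth. CCNE2 overlaps NDUFAF6 and INTS8 on the opposite strand, of which INTS8 had more counts with JQ1 (2836 and 2870) than without (2138 and 2327) and NDUFAF6 had fewer (344 and 263 against 529 and 509).

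CCNE1 lies on chromosome 19 (29811898 to 29824308, plus strand). It read 1.97 FPKM with DMSO and 2.60 with DMSO + PHA, against 2.00 with JQ1 and 2.43 with JQ1 + PHA (180 and 249 counts against 191 and 220). The libraries with PHA were the higher ones. PHA against none gave 0.40 (0.12 to 0.69) in DMSO and 0.28 (-0.003 to 0.57) in JQ1, the latter excluding 0 with TMM scaling. A difference by JQ1 was not detectable at this depth, at 0.02 (-0.28 to 0.32) without PHA and -0.10 (-0.37 to 0.17) with it. CDK2, the partner of both, read 5.29 FPKM with DMSO and 5.92 with DMSO + PHA, against 6.64 with JQ1 and 6.66 with JQ1 + PHA.

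The order of the levels was led by CDK6 in every library, on both length scales. With DMSO, the deposited FPKM placed CDKN2C, CDKN1B and CDK4 next, at 13.8, 13.7 and 13.5, whose counting intervals overlap, then CCNE2 at 9.09. CCND2 at 4.55 and CDKN2D at 4.11 also had overlapping intervals, and CCNE1, CCND3 and CDKN1A came last. With JQ1 the order became CDK6, CDKN1B, CDKN2C, CDKN2D, CCNE2, CDK4, CCND3, CCNE1, CCND2 and CDKN1A, and it was the same with JQ1 + PHA. CDKN2D and CCNE2, at 12.8 and 12.5 with JQ1, were not distinguishable by counting error. In both libraries with JQ1, the counting intervals of CCND2 and CDKN1A overlapped on this scale. Per canonical length, CDKN2C came next after CDK6 in every library. On that scale CCND2 stood a little above CCNE1 with DMSO (5.43 against 4.90) and below it with DMSO + PHA (4.15 against 6.47). In both libraries with JQ1, CCND2 was in the last place per canonical length, below CDKN1A.

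**Figure D4:**
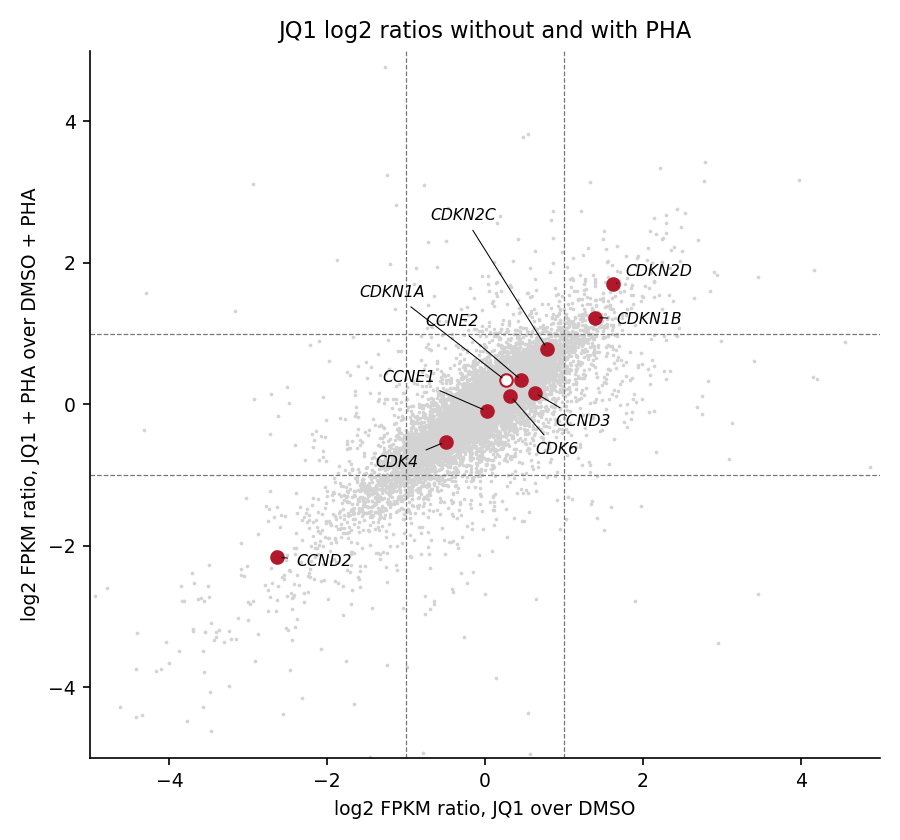
Log2 FPKM ratio for JQ1 without PHA (horizontal) against that with PHA (vertical) for the 11503 genes tested (grey) and the 10 genes described (red, with CDKN1A, which did not pass the filter, as an open circle). Dashed lines mark 2-fold, and 16 genes lie beyond the axes. CDKN1B and CDKN2D sit in the upper right, CCND2 in the lower left (-2.63 and -2.16), and the other genes within 2-fold on both axes.

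The promoters differ in what they hold. Windows of 8 of the 10 genes were matched by symbol and searched on both strands for the CCAAT box (CCAAT), the TATA box (TATAAA), the GC box (GGGCGG), the E box (CACGTG), E2F sites (TTTGGCGC, TTTCCCGC, TTTCGCGC and TTTGCCGC) and a FOXO site (GTAAACA). Of 35116 RefSeq windows of 250 bases, 32.0% held the CCAAT box, 10.7% the TATA box, 42.6% the GC box, 6.34% the E box, 2.79% an E2F site and 2.98% the FOXO site. CCND2, which was at least 2-fold lower with JQ1, had no window matched, so its promoter was not searched. CDKN1B, CDKN2C, CDKN2D and CCND3 held the CCAAT box and CDKN1A, CDK4, CDK6 and CCNE1 did not. All 8 windows held the GC box, with 7 in CCNE1, 4 in CDKN1A, the last pair of which overlap by 1 base, and 3 in CDK6. None of the 8 held the TATA box, E2F or FOXO letters searched, which says only that these letters are not in these windows. The GC content was 48.8% for CDKN2C, 64.4% for CDKN1B and 81.2% for CCNE1, against a median of 58.0% over all windows.

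The genes with the most similar profile over the 4 libraries were found by the root mean square difference of their centred log2(FPKM + 0.1), for the 3 genes whose own profile spanned at least 2-fold. For CDKN1B these were H3F3A, a gene of histone H3.3 (difference 0.0220, 2.02 and 2.11 FPKM without JQ1 and 5.30 and 5.22 with it), XYLT1 (0.0285) and PPP3CB-AS1 (0.0289). For CDKN2D they were DNM3 (0.0363), HEXIM1, an inhibitor of the elongation factor P-TEFb (0.0497, 36.2 and 34.6 FPKM without JQ1 and 109 and 104 with it), and ADD3 (0.0552). For CCND2 they were CCDC86 (0.0199, 31.3 and 24.9 FPKM without JQ1 and 5.10 and 5.34 with it), SFXN4 (0.0649) and NME1 (0.0811). With 4 libraries and 11503 genes such matches are a description only.

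The other genes of the pathway were counted in the same way. Of 32 other G1/S genes, 27 passed the filter, and 1 was at least 2-fold higher and 1 lower with JQ1, and 1 and 0 with PHA present. Among all genes tested these shares were 5.22% and 8.65%, and 3.69% and 8.00% with PHA. With a pseudocount of 1, CDK3 was no longer past 2-fold. Named after their values were seen, these were the kinase gene CDK3 (higher) and TFDP1, the gene of the E2F partner DP1 (lower), and with PHA present E2F3 (higher). None was past 2-fold in both. CDK3 read 0.558 FPKM with DMSO (23 counts) and 1.62 with DMSO + PHA, against 1.41 with JQ1 and 1.03 with JQ1 + PHA. With PHA present CDK3 was thus lower with JQ1 (log2 ratio -0.66, -1.24 to -0.08). TFDP1 read 52.0 FPKM with DMSO and 29.1 with DMSO + PHA, against 16.9 with JQ1 and 25.6 with JQ1 + PHA, and E2F3 read 3.38 and 4.10 FPKM without JQ1 and 2.22 and 9.41 with it, the last with PHA. The median log2 ratio of the 27 was -0.17 with JQ1 and -0.01 with PHA present, beside -0.01 and -0.02 for all genes tested. RB1, the gene of the retinoblastoma protein that CDK4 and CDK6 phosphorylate, was also looked at after its values were seen, and read 64.7 FPKM with DMSO, 113 with JQ1, 92.0 with PHA alone and 124 with both agents.

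Of 22 p53 targets other than CDKN1A, 18 passed the filter, with a median of 0.49 with JQ1 and 0.35 with PHA present. At least 2-fold higher were 2 in each comparison, and 2 and 0 were at least 2-fold lower, read against the same shares of all genes. Beside TP53INP1, and named after their values were seen, BTG2 was higher and AEN and FAS were lower without PHA, and XPC was higher with it. With a pseudocount of 1, 1 of the list was at least 2-fold higher and 0 lower without PHA. TP53INP1, which promotes cell death and autophagy downstream of p53, was the list's gene past 2-fold in both, at 1.01 FPKM with DMSO and 2.14 with DMSO + PHA, against 8.39 with JQ1 and 7.83 with JQ1 + PHA. The 22 S phase genes had a median of -0.28 with JQ1 and -0.05 with PHA present, and RRM2, a subunit of ribonucleotide reductase, was past 2-fold in both (33.2 and 30.9 FPKM without JQ1 and 66.6 and 69.7 with it). With a pseudocount of 1, RRM2 was past 2-fold with PHA present and not without it. The 22 genes of G2 and mitosis had medians of 0.16 and 0.26, and 0 were past 2-fold in either direction.

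**Figure D5:**
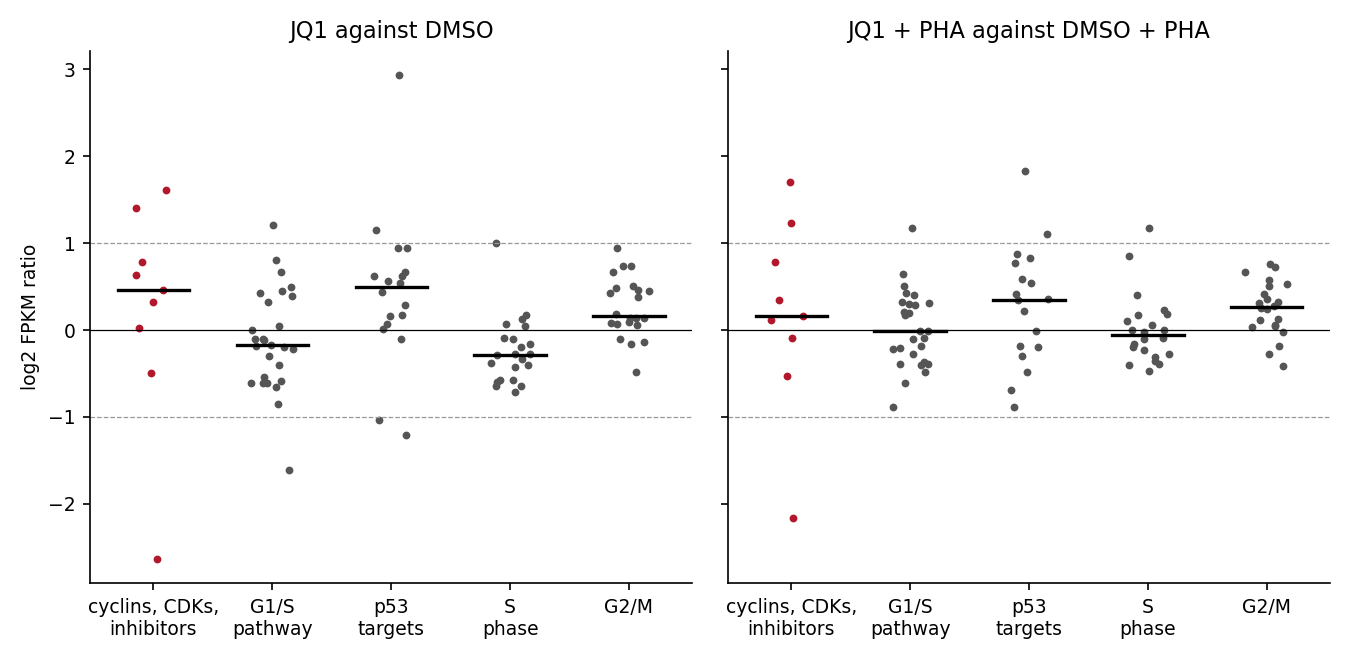
Log2 FPKM ratio (vertical) of the genes that passed the filter, 1 point per gene, for the cyclins, CDKs and inhibitors described (red) and 4 lists (grey), with JQ1 (left) and with JQ1 in the presence of PHA (right). Horizontal bars are medians and dashed lines mark 2-fold. The red points spread from -2.63 to 1.62 without PHA and from -2.16 to 1.70 with it.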

How the data were processed

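RNA-seq was analysed for 4 Jurkat libraries, 1 per condition. The extract protocol and the study's methods name Hisat2 2.0.4 on GRCh38, while the submitters' processing notes list TopHat2 2.0.9 and Cufflinks 2.1.1 without a role. The labels and the methods name different kits of the same maker (VAHTS), of which the one in the methods is stranded. The counting program, its strand setting and the annotation release are not given in the sources used here. The deposited values are the authors' counts per gene, without normalization, and FPKM that the authors derived from them. The implied gene length was computed from both and set beside the canonical transcript of GENCODE release 44.

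Ratios of shares of counts have 95% exact (Clopper-Pearson) intervals, and the difference of 2 such ratios a conditional exact interval. Total counts lay between 18620954 and 19685401 and set their width. Genes past 2-fold were counted on log2(FPKM + 0.1) over the 11503 genes whose mean FPKM reached 1. No test was made, since each condition had 1 library. The steps were tested on simulated data. The 10 genes and all lists were chosen with earlier results of these data known. Named were the 10 genes, the remaining family members CCND1, CDKN1C, CDKN2A, CDKN2B and CDK2, list genes past 2-fold in the same direction in both JQ1 comparisons, genes overlapping the 10, and the 3 nearest profiles. Promoter windows are from RefSeq (GRCh38.p14), and were searched for 8 of the 10 genes. For each gene only the RefSeq start nearest the canonical start was used. CDKN2C and CCND3 had 3 RefSeq starts each and CDK6 had 2, so their other promoters were not searched. Their coordinates and those of the files use GRCh38. Alternatives were the pseudocount, the filter, the fold threshold, TMM and DESeq2 scaling and centring, with canonical length added after the data were seen. Python 3.11.15, numpy 2.4.6, pandas 2.3.3, scipy 1.17.1, matplotlib 3.10.9, R 4.3.3, edgeR 4.0.16 and DESeq2 1.42.0 were used, the last pair for scaling factors only.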

Additional observations from a re-analysis of the deposited data

Results flagged for a closer look

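For 5 of the genes and 1 list, the sign of a log2 ratio differed between paired comparisons that share no library. With 1 library per condition these differences were not tested between conditions, and the values are those of single pairs of libraries. For JQ1, CCNE1 read 0.02 without PHA and -0.10 with it. For PHA, in DMSO and then in JQ1, CDKN1B read 0.11 and -0.06, CDKN2D -0.04 and 0.04, CCNE2 0.06 and -0.05, and CCND2 -0.39 and 0.11. Of all these values, the counting interval excluded 0 for CCND2 in DMSO and for no other. The median of the S phase list was -0.10 for PHA in DMSO and 0.10 in JQ1. The difference between both PHA ratios equals that between both JQ1 ratios. Of these 5 genes, its counting interval excluded 0 for CDKN1B (-0.17, -0.31 to -0.03) and CCND2 (0.49, 0.04 to 0.94). That interval also excluded 0 for CCND3 (-0.49, -0.72 to -0.26) and CDK6 (-0.20, -0.22 to -0.18), whose ratios kept their sign.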

How the results depend on the processing

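The counts of genes past 2-fold (2 higher and 1 lower with JQ1, with and without PHA, and 0 for PHA) were the same with a pseudocount of 1, TMM scaling, DESeq2 scaling and centring on the median gene. At a threshold of 1.5-fold, 4 genes were higher with JQ1 without PHA and 3 with it, beside 1702 and 1343 of the 11503 genes tested. At that threshold 1 gene was lower in each comparison, beside 2222 and 2045 of all genes tested. Of the 40 log2 ratios of the 10 genes, 37 stayed within their counting interval with a pseudocount of 1, 38 with TMM, 37 with DESeq2 factors and 39 with centring, and none changed sign. The exceptions were CCND2 (-1.75 and -1.40 with a pseudocount of 1), CCND3 (0.44) and CDK6. For PHA in JQ1, the interval of CDK4 excluded 0 by total counts and with DESeq2 factors and included it with TMM, and that of CDK6 excluded 0 by total counts and TMM and included it with DESeq2 factors. The interval of CDK4 for PHA in DMSO excluded 0 with TMM and DESeq2 factors and not by total counts, and that of CCNE1 for PHA in JQ1 excluded it with TMM alone. With a pseudocount of 1, CDK3, BTG2, AEN, FAS and, without PHA, RRM2 were no longer past 2-fold. Levels of different genes depend on the length used. Of the 11503 genes tested, the number at least 2-fold higher with JQ1 was 600, and was 305 with a pseudocount of 1 and 1702 at 1.5-fold. With no filter it was 1945, out of 50868 genes. The number lower was 995, and 576, 2222 and 2797 under the same changes. Intervals do not cover variation between cultures.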
